A study of Caenorhabditis elegans with 12 samples.

Results

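The UDP-glycosyltransferase (UGT) genes of Caenorhabditis elegans are taken here as every gene whose symbol starts with ugt-. There were 67 of them among the 25478 genes measured. Each had 1 probe set of its own on the array, 0 of these probe sets named a second gene, and all 67 are annotated as protein coding. Wild-type N2 worms were grown to the fourth larval stage (L4) on nematode growth medium (NGM) with Escherichia coli OP50 as food. The medium held 1 of 3 fatty acids at 1000 µM, or no added acid (control). The acids were LNA (linoleic acid), GLA (the gamma form of linolenic acid) and DGLA (dihomo-gamma-linolenic acid). All plates, control plates included, held 1% v/v ethanol, the solvent of the acids, and were kept at 20 °C. Each of the 12 arrays (3 biological replicates in each of the 4 groups) held RNA of whole larvae, about 2000 of which were placed on a plate as hatchlings. Bulk RNA of this kind cannot tell fewer cells of a type from less RNA per cell.

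UGT enzymes join a sugar, taken from a UDP-sugar, to small fat-soluble molecules, which makes these more soluble in water and easier to export. The reaction belongs to the second phase of detoxification, after oxidation by cytochrome P450 enzymes and beside conjugation by glutathione S-transferases, and ABC transporters carry conjugates out of the cell. In worms the sugar is largely glucose, and many members of the family act in the intestine. Linoleic, gamma-linolenic and dihomo-gamma-linolenic acid follow each other in the worm's own synthesis of polyunsaturated fats. GLA differs from LNA by an added double bond, and DGLA is the elongated form of GLA.

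Values are log2 signals after RMA (robust multi-array average), so that a difference of 1 is a doubling of signal. Differences were tested with limma's two-sided moderated test on all 29317 probe sets and 12 arrays, and a gene is called when its p, adjusted by the Benjamini-Hochberg method over all probe sets of a comparison, is under 0.05. Arrays correlated with each other at 0.987 to 0.994 across probe sets, and their medians lay between 4.47 and 4.56. Arrays LNA 2 and LNA 3 stood apart on the first principal component (scores 41.95 and 35.68, against -18.02 to 3.64 for the other 10 arrays). Of the fixed markers of intestine (9 of 9 measured), hypodermis (6 of 6), germline (6 of 6), sperm (6 of 6), neurons (6 of 6), body wall muscle (6 of 6), pharynx (5 of 5), amphid sheath glia (3 of 4) and excretory cell (3 of 3), none was called in any of the 6 comparisons.

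The summed signal of the 9 intestinal markers, on the log2 scale, was 13.36 to 13.44 in LNA arrays, 13.34 to 13.38 in GLA arrays, 13.31 to 13.42 in DGLA arrays and 13.31 to 13.33 in control arrays. In this sum, to which the brightest markers add most, the LNA and GLA arrays all lay slightly above the control arrays. In the mean level of the 9 markers the LNA arrays (9.44 to 9.55) also lay above the control arrays (9.36 to 9.41). The GLA arrays (9.35 to 9.43) overlapped the control arrays in that mean. The summed body wall muscle markers were 14.69, 14.13 and 14.34 in LNA 1, LNA 2 and LNA 3, against 14.59 to 14.67 in control arrays. The summed pharyngeal markers were 11.28, 10.06 and 10.40 in LNA 1, LNA 2 and LNA 3, against 11.05 to 11.21 in control arrays. The markers of both tissues were thus low in LNA 2 and LNA 3 and not in LNA 1. Other lists shifted in these arrays too. In LNA 1, LNA 2 and LNA 3 the summed germline markers were 12.39, 12.11 and 12.22 (control 12.24 to 12.37). Hypodermal markers were 14.07, 14.18 and 14.20 (control 14.05 to 14.15). Neuronal markers were 12.627, 12.737 and 12.693 (control 12.633 to 12.686). The part of these shifts in the results on LNA was not tested.

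The family spanned a wide range of signal. Over the 12 arrays its median member had a mean log2 signal of 5.23, against 4.52 for the median of all genes. In all 12 arrays 40 members lay above the median of all probe sets, and 13 lay above the upper quartile. At the other end 4 members lay under the lower quartile in all 12 arrays (the quartile was 2.90 to 2.99, according to the array) and 11 more did so in some arrays. A signal as low as that is hard to tell from background on this type of array, and no detection call was used here.

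The highest member was ugt-22 (C08F11.8), with a mean of 10.16 over 12 arrays, above 96.8% of all genes. Then came ugt-47 (R04B5.9, 9.10), ugt-50 (T07C5.1, 8.70), ugt-46 (B0310.5, 8.67) and ugt-6 (ZC455.4, 8.50). The lowest 5 were ugt-38 (F10D2.7, 1.71), ugt-15 (C44H9.1, 2.01), ugt-3 (ZC455.3, 2.24), ugt-34 (F29F11.2, 2.46) and ugt-55 (T04H1.7, 2.53). Probe sets differ in how strongly they bind, so these levels rank signals and not amounts of RNA. None of the 5 highest members was called in any comparison of all 12 arrays.

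**Figure D1:**
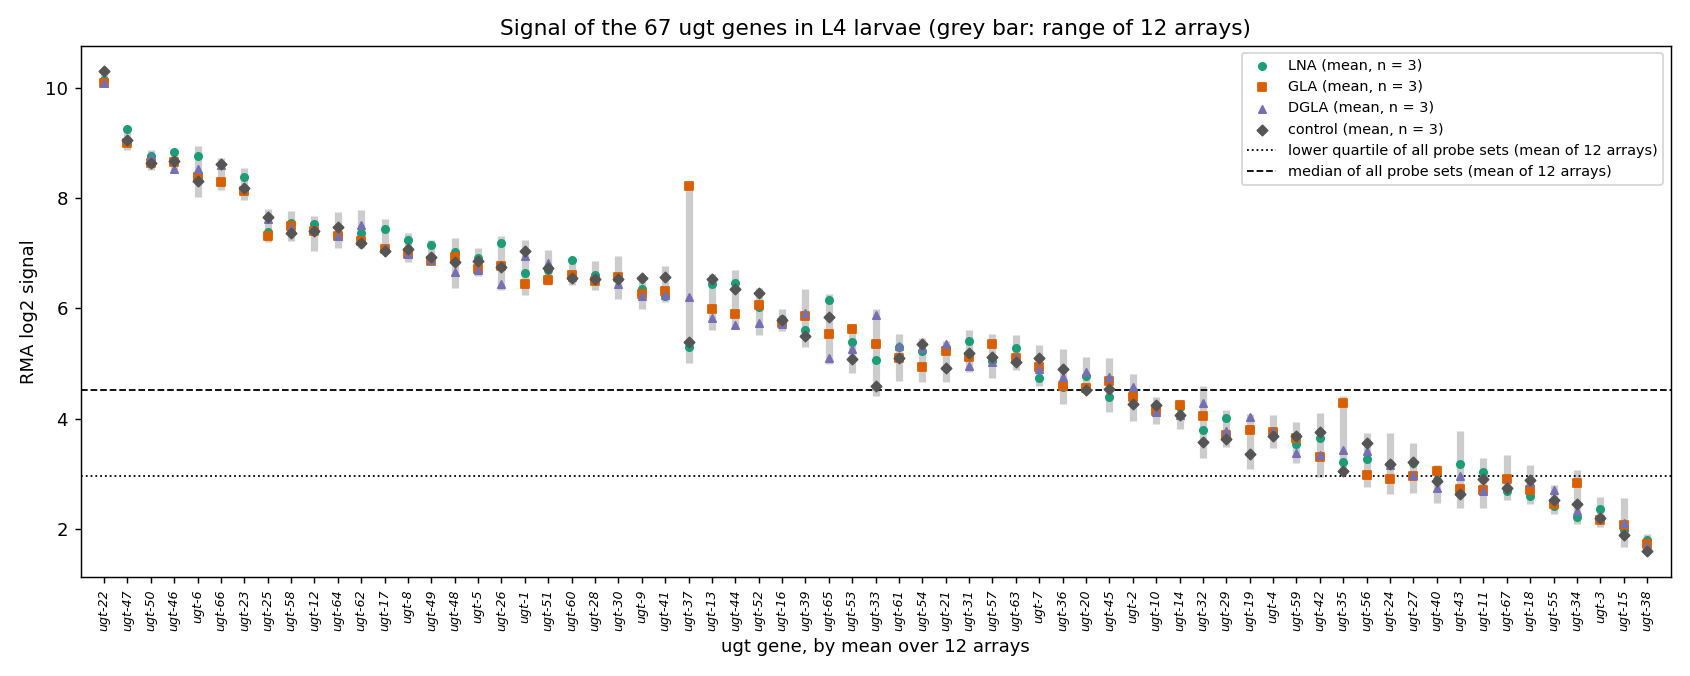
RMA log2 signal (vertical axis) of each of the 67 ugt genes (horizontal axis, ordered by mean over 12 arrays), with the means of the LNA, GLA, DGLA and control arrays (n = 3 each) and a grey bar for the range of the 12 arrays. The 4 group means lie close together for most members, while ugt-37 with GLA (8.22) stands far above its other groups.

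Differences between the 4 groups passed the test in a few members. The moderated F test over the 4 group means called 6 of the 67 members, namely ugt-37 (adjusted p = 8.05e-06), ugt-35 (0.00115), ugt-33 (0.00689), ugt-65 (0.00734), ugt-44 (0.0187) and ugt-26 (0.0497). Of all genes 0.487% were called by that test. The call of ugt-26 held without LNA 1 and ended without any other array, and that of ugt-44 ended without any 1 DGLA array, GLA 2, LNA 3, control 1 or control 2. Without LNA 2 and LNA 3 together 4 members were called, and ugt-65 (adjusted p = 0.107) and ugt-26 (0.341) were not. The gap between a member's highest and lowest group mean had a median of 0.32, against 0.22 over all genes, and exceeded 0.5 in 15 members (22.4%, against 6.34% of all genes). The spread between replicates, pooled within groups, had a median SD of 0.176 in the family and 0.166 over all genes.

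The strongest response of the family was that of ugt-37 (F10D2.6) to GLA. Its log2 signal was 8.20, 8.25 and 8.22 in the GLA arrays, against 5.54, 5.52 and 5.13 in the control arrays. It was 5.01, 5.56 and 5.36 in the LNA arrays and 6.43, 6.05 and 6.16 in the DGLA arrays. The GLA arrays lay within 0.05 of each other and above all other arrays, the DGLA arrays came next and overlapped no other group, and the LNA arrays overlapped the control arrays.

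With GLA the signal of ugt-37 averaged 8.22 ± 0.0256, against 5.40 ± 0.233 in control (SD, n = 3 each), a rise of 7.07-fold (log2 difference 2.82, SE 0.156, adjusted p = 7.33e-06). With DGLA it averaged 6.21 ± 0.193, a rise of 1.76-fold against the same control arrays (0.81, SE 0.156, adjusted p = 0.0494). The call with DGLA sits at the threshold and ended whichever of the 6 arrays was left out (adjusted p 0.0868 to 0.215). With LNA it averaged 5.31 ± 0.278, and the difference from control was -0.09 (95% interval -0.43 to 0.25, adjusted p = 0.873).

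The acids themselves differed in this gene. GLA gave 7.53 times the signal of LNA (log2 difference 2.91, SE 0.156, adjusted p = 7.72e-06). DGLA fell by 2.01 on the log2 scale relative to GLA (SE 0.156, adjusted p = 0.000318) and was 0.90 above LNA (SE 0.156, adjusted p = 0.0375). The differences of GLA from control, from LNA and of DGLA from GLA kept their calls whichever array was left out. The call of DGLA over LNA ended without DGLA 1, DGLA 2, DGLA 3 or LNA 3 (highest adjusted p = 0.124), and without LNA 2 and LNA 3 together (1.20, adjusted p = 0.0827).

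The second member raised by GLA was ugt-35 (C32C4.7), a gene of low signal. It read 4.27, 4.17 and 4.41 in the GLA arrays, against 2.95, 3.21 and 3.01 in the control arrays. It read 3.07, 3.41 and 3.14 in the LNA arrays and 3.42, 3.52 and 3.34 in the DGLA arrays. Every GLA array lay above every other array, and 1 control array fell under the lower quartile of its array.

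The rise of ugt-35 with GLA was 2.34-fold over control (log2 difference 1.23, SE 0.116, adjusted p = 0.000776) and 2.11-fold over LNA (1.08, SE 0.116, adjusted p = 0.00601). DGLA was 0.86 below GLA (SE 0.116, adjusted p = 0.027). The call against control held whichever array was left out. The call against LNA ended without GLA 3 or LNA 3 (highest adjusted p = 0.0582), and that of DGLA against GLA ended whichever of the 6 arrays was left out (0.0747 to 0.160). The differences from control of 0.37 with DGLA (adjusted p = 0.502) and 0.15 with LNA (adjusted p = 0.694) did not pass.

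Beside ugt-35 on its chromosome, with no other protein-coding gene between, lies ugt-34 (F29F11.2). Its signal was 3.08, 2.69 and 2.76 in the GLA arrays, against 2.37, 2.56 and 2.43 in the control arrays. It was 2.25, 2.28 and 2.09 in the LNA arrays and 2.29, 2.17 and 2.53 in the DGLA arrays. Here too the GLA arrays overlapped no other group, but the gene lay under the lower quartile in 11 of 12 arrays. Its differences of 0.39 for GLA from control (adjusted p = 0.702), 0.63 for GLA from LNA (adjusted p = 0.179) and -0.51 for DGLA from GLA (adjusted p = 0.497) did not pass.

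Against control, 2 members were thus called higher with GLA (2.99% of members, against 0.165% of all genes) and 0 lower (0.0824% of all genes). At an unadjusted p under 0.05 in the same test, 7 members were higher (10.4%, against 2.71% of all genes) and 10 lower (14.9%, against 2.76%). All GLA arrays lay above all control arrays in 9 members (13.4%, against 5.7% of all genes) and below them in 8 (11.9%, against 6.35%). The next smallest p belonged to ugt-33 (0.76, adjusted p = 0.074, and 0.04 with array weights, where it was called) and ugt-13 (-0.54, adjusted p = 0.265). In ugt-1 (AC3.7) the GLA arrays (6.49, 6.62 and 6.24) lay below the control arrays (6.93, 6.96 and 7.23), a difference of -0.59 (adjusted p = 0.279). Across the family the median difference of GLA from control was -0.01, against -0.0024 over all genes.

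**Figure D2:**
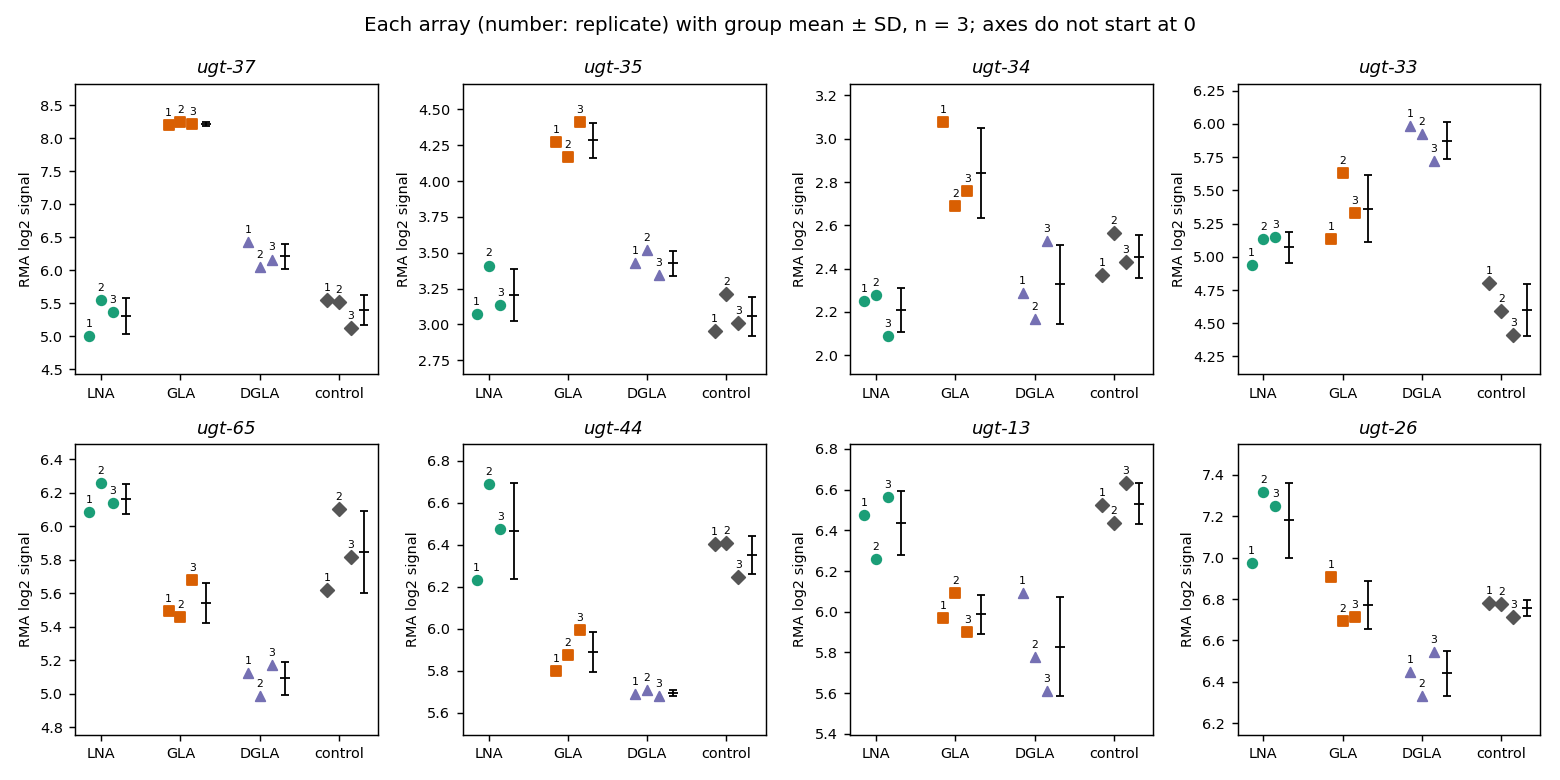
RMA log2 signal (vertical axes, which differ between panels and do not start at 0) of 8 ugt genes in each LNA, GLA, DGLA and control array, numbered by replicate, with the group mean ± SD (n = 3). The GLA arrays stand above all others in ugt-37, ugt-35 and ugt-34, the DGLA arrays stand highest in ugt-33 and lowest in ugt-65, ugt-44 and ugt-26.

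With DGLA the largest rise over control was in ugt-33 (C35A5.2). It read 5.98, 5.92 and 5.72 in the DGLA arrays, against 4.80, 4.59 and 4.41 in the control arrays. It read 4.94, 5.13 and 5.15 in the LNA arrays and 5.13, 5.63 and 5.33 in the GLA arrays. The DGLA arrays lay above all other arrays and the control arrays below all other arrays, with LNA and GLA arrays in between and overlapping.

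The rise of ugt-33 with DGLA was 2.42-fold (log2 difference 1.27, SE 0.143, adjusted p = 0.00127), with a mean of 5.88 ± 0.139 with DGLA and 4.60 ± 0.194 in control (SD, n = 3 each). That call held whichever array was left out (adjusted p 0.0029 to 0.00951). Against the same control arrays the difference was 0.76 (95% interval 0.45 to 1.07, adjusted p = 0.074) with GLA and 0.47 (0.16 to 0.78, adjusted p = 0.432) with LNA. Between acids, DGLA was 0.80 above LNA (SE 0.143, adjusted p = 0.0446) and 0.51 above GLA (95% interval 0.20 to 0.83, adjusted p = 0.643), and GLA was 0.29 above LNA (-0.02 to 0.60, adjusted p = 0.474). The call of DGLA over LNA ended without any 1 DGLA array, LNA 2 or LNA 3 (highest adjusted p = 0.185).

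Lower with DGLA were ugt-65 (F08G5.5), ugt-44 (F01D4.2) and ugt-13 (H23N18.1). The signal of ugt-65 was 5.12, 4.98 and 5.17 in the DGLA arrays, against 5.62, 6.10 and 5.81 in the control arrays. It was 6.09, 6.26 and 6.14 in the LNA arrays and 5.50, 5.46 and 5.68 in the GLA arrays. The DGLA arrays were the lowest of all 12, and the LNA arrays overlapped the control arrays only through control 2.

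In ugt-65 DGLA fell by 0.75 relative to control (SE 0.124, adjusted p = 0.0205) and by 1.07 relative to LNA (SE 0.124, adjusted p = 0.00289). The second of these calls held whichever array was left out and ended without LNA 2 and LNA 3 together (-0.99, adjusted p = 0.144). The first held without control 1 and ended without any other array of the comparison (highest adjusted p = 0.103), and without LNA 2 and LNA 3 (adjusted p = 0.0506). GLA differed from LNA by -0.62 (95% interval -0.89 to -0.35, adjusted p = 0.179) and DGLA from GLA by -0.45 (-0.72 to -0.18, adjusted p = 0.643), neither of which passed.

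The signal of ugt-44 was 5.69, 5.71 and 5.68 in the DGLA arrays, against 6.40, 6.41 and 6.25 in the control arrays. It was 6.23, 6.69 and 6.47 in the LNA arrays and 5.80, 5.88 and 5.99 in the GLA arrays. The DGLA and GLA arrays overlapped neither each other nor the other groups, and the LNA arrays overlapped the control arrays. DGLA fell by 0.66 relative to control (SE 0.114, adjusted p = 0.0269) and by 0.77 relative to LNA (SE 0.114, adjusted p = 0.0144). The first call ended whichever of the 6 arrays was left out (0.053 to 0.133), and the second held only without LNA 1 (highest adjusted p = 0.0842 otherwise).

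In ugt-13 the signal was 6.09, 5.78 and 5.61 in the DGLA arrays, against 6.52, 6.43 and 6.63 in the control arrays. It was 6.48, 6.26 and 6.56 in the LNA arrays and 5.97, 6.09 and 5.90 in the GLA arrays. The DGLA and GLA arrays overlapped each other and lay below the other 6. DGLA fell by 0.70 relative to control (SE 0.13, adjusted p = 0.0378), a call that held without DGLA 1 and ended without any other array of the comparison (highest adjusted p = 0.176) and without LNA 2 and LNA 3 (adjusted p = 0.0639).

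Against control, 2 members (ugt-33 and ugt-37) were thus called higher with DGLA, against 0.33% of all genes, and 3 lower (4.48% of members), against 0.212% of all genes. At an unadjusted p under 0.05, 9 members were higher (13.4%, against 2.98%) and 8 lower (11.9%, against 2.7%), with 5 higher without DGLA 1 and 5 lower without DGLA 2. All DGLA arrays lay above all control arrays in 7 members (10.4%, against 5.57% of all genes) and below them in 9 (13.4%, against 5.19%). With each array of the comparison left out in turn the count of 5 called was 1 or 2. It was 1 in a fit of the 6 arrays of these groups alone, where ugt-33 kept its call. The difference in ugt-19 (K08B4.3) missed the threshold, with 3.97, 4.03 and 4.08 in the DGLA arrays, against 3.47, 3.09 and 3.52 in the control arrays (0.67, SE 0.129, adjusted p = 0.0507). It passed with array weights, cyclic loess, quantile normalization or dim probe sets left out. The median difference of DGLA from control over the family was -0.0096, against -0.0017 over all genes.

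With LNA no member was called against control in limma's test, against 0.0549% of all genes higher and 0.0118% lower. At an unadjusted p under 0.05, 11 members were higher (16.4%, against 5.17% of all genes) and 4 lower (5.97%, against 4.17%). Without LNA 2 and LNA 3 those numbers were 6 and 3. Without control 1 the number higher was 7, and the number lower was 0 without LNA 3 and 1 without control 2. The family's median difference was 0.11, against 0.02 over all genes, and 0.05 without LNA 2 and LNA 3. Of the 67 members 33 lay above their own 12-array mean in LNA 1 (49.3%, against 49.8% of all genes), 47 in LNA 2 (70.1%, against 55.4%) and 40 in LNA 3 (59.7%, against 56.5%). The number was 25 to 28 in the GLA arrays, 21 to 40 in the DGLA arrays and 25 to 35 in the control arrays, so that DGLA 1 equalled LNA 3.

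The smallest p with LNA belonged to ugt-17 (C08B6.1), which read 7.39, 7.63 and 7.30 in the LNA arrays, against 7.02, 7.09 and 7.01 in the control arrays (0.40, SE 0.0953, adjusted p = 0.318). In ugt-26 (C10H11.6) the LNA arrays read 6.97, 7.32 and 7.25, against 6.78, 6.78 and 6.71 in the control arrays (0.42, SE 0.109, adjusted p = 0.347). In ugt-60 (C07A9.6) they read 6.90, 6.85 and 6.89, against 6.42, 6.59 and 6.66 (0.33, adjusted p = 0.393). In ugt-19 they read 3.76, 3.95 and 3.75, against 3.47, 3.09 and 3.52 (0.46, adjusted p = 0.389). In all 4 genes the LNA arrays lay above every control array, as in 9 members in all (13.4%, against 8.24% of all genes), and 5 members lay below (7.46%, against 3.94%). Without LNA 2 and LNA 3 the differences were 0.35 in ugt-17, 0.22 in ugt-26, 0.35 in ugt-60 and 0.40 in ugt-19. Without LNA 1, which leaves the arrays that stood apart, ugt-26 and ugt-6 were called.

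Between acids, the genes called were largely those already named. GLA against LNA called 2 members higher, ugt-37 and ugt-35, against 0.0392% of all genes, and 0 lower (0.0235%). At an unadjusted p under 0.05, 3 were higher (4.48%, against 5.18%) and 11 lower (16.4%, against 5.78%), with 6 higher without LNA 2. Without LNA 1 the count of 2 called was 6, with ugt-34 higher and ugt-26, ugt-44 and ugt-65 lower in addition. Without LNA 2 and LNA 3 both calls stayed, ugt-37 at 3.21 (adjusted p = 0.000422) and ugt-35 at 1.21 (adjusted p = 0.0325). DGLA against GLA called 0 members higher (0.0275% of all genes) and 2 lower (0.0392%), again ugt-37 and ugt-35. At an unadjusted p under 0.05, 7 were higher (10.4%, against 2.45%) and 7 lower (10.4%, against 2.59%). These numbers were 4 and 4 without GLA 1, 4 and 6 without GLA 2 and 5 and 11 without DGLA 1. All DGLA arrays lay above all GLA arrays in 8 members (11.9%, against 5.75%) and below them in 10 (14.9%, against 5.08%).

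DGLA against LNA called 2 members higher (ugt-37 and ugt-33), against 0.122% of all genes, and 3 lower (ugt-65, ugt-44 and ugt-26), against 0.208%. In ugt-26 the DGLA arrays read 6.45, 6.33 and 6.55, against 6.97, 7.32 and 7.25 in the LNA arrays, and GLA (6.91, 6.69 and 6.71) and control arrays lay in between. The difference of DGLA from LNA was -0.74 (SE 0.109, adjusted p = 0.0144), and it ended without DGLA 1, DGLA 2, LNA 2 or LNA 3 (highest adjusted p = 0.0818). Without LNA 2 and LNA 3 together it was -0.53 (adjusted p = 0.263), and 0 of the 5 calls stayed, with ugt-33 at 0.94 and ugt-44 at -0.54 (adjusted p = 0.235 for each). The fit then rests on 1 LNA array, which is assumed to vary like those of the other groups. At an unadjusted p under 0.05, 6 members were higher (8.96%, against 5.31%) and 10 lower (14.9%, against 5.9%) in the fit of all arrays, with 2 higher without LNA 3 and 3 higher without DGLA 3.

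Array by array, 15 members had all DGLA arrays below all LNA arrays (22.4%, against 8.23% of all genes) and 4 had them above (5.97%, against 4.43%). For GLA against LNA the counts were 14 lower (20.9%, against 10.4%) and 3 higher (4.48%, against 4.88%). LNA held the highest group mean in 26 members (38.8%, against 36.3% of all genes) and the lowest in 9 (13.4%, against 24.6%). The control held the highest in 18 (26.9%, against 20.4%) and the lowest in 22 (32.8%, against 23.5%).

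**Figure D3:**
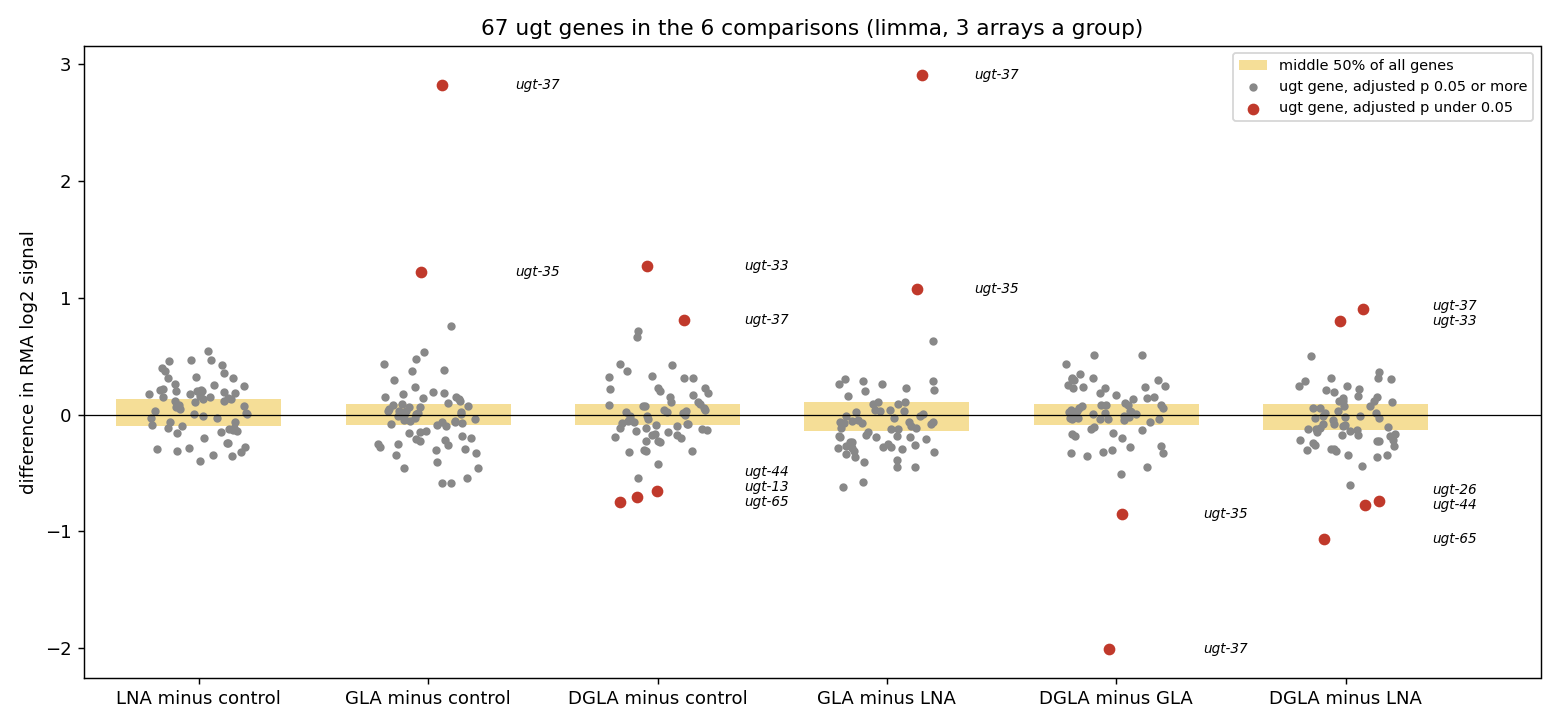
Difference in RMA log2 signal (vertical axis) of each of the 67 ugt genes in the 6 comparisons (horizontal axis), with members at an adjusted p under 0.05 in red and named, and a band for the middle 50% of all genes. No member is red for LNA minus control, and ugt-37 reaches 2.82 for GLA minus control and 2.91 for GLA minus LNA.

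Many ugt genes lie beside each other. Counting as a run those with at most 2 other protein-coding genes between neighbours, 37 of the 67 members fell into 12 runs and 30 stood alone, and the largest run held 8. Genes of 1 run can be alike in sequence, and signal that a probe set takes up from a neighbour was not tested, since probe sequences were not used here.

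The direct neighbours of ugt-37 did not pass with GLA. On one side, ugt-40 averaged 3.05 with GLA, against 2.86 in control (0.19), and on the other ugt-38 averaged 1.73 with GLA, against 1.61 in control (0.12). Whether they differ from ugt-37 in response was not tested, and both genes are dim, ugt-38 lying under the lower quartile in all 12 arrays and ugt-40 in 7. In the run of ugt-35 and ugt-34 the differences of GLA from control were 1.23 and 0.39.

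The neighbours of ugt-13 and ugt-44, which fell with DGLA, did not pass either. In the run of 8, ugt-13 differed from control by -0.70 with DGLA, while the other 7 (ugt-12, ugt-11, ugt-9, ugt-10, ugt-67, ugt-8 and ugt-14) ranged from -0.32 to 0.04. Beside ugt-44 (-0.66) lay ugt-43, at 0.32. In the run of ugt-26, ugt-27, ugt-28 and ugt-25 the differences with DGLA were -0.32, -0.23, 0.04 and -0.04, none of which passed. The genes ugt-33 and ugt-65 had no ugt neighbour by this count.

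**Figure D4:**
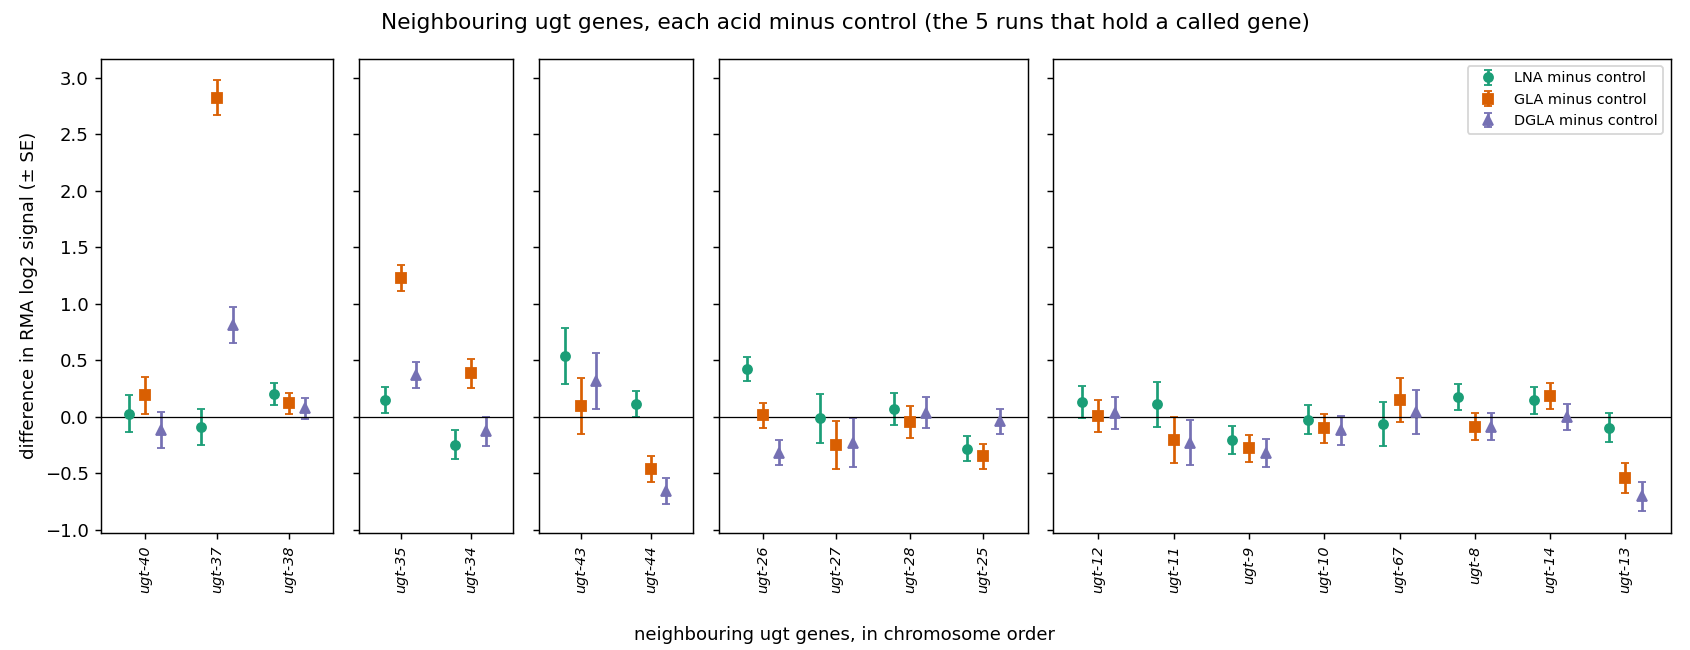
Difference in RMA log2 signal from control (vertical axis, ± SE of the fit) with LNA, GLA and DGLA, for the genes of the 5 runs of neighbouring ugt genes that hold a called gene, in chromosome order. The response of ugt-37 to GLA (2.82) stands beside 0.19 in ugt-40 and 0.12 in ugt-38, and ugt-13 with DGLA (-0.70) is the lowest of its run of 8.

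Some members were named by a fixed choice, made with earlier results of these data known. The highest member, ugt-22, read 10.14, 10.14 and 10.16 in LNA arrays, 10.13, 10.05 and 10.09 in GLA arrays, 10.06, 10.02 and 10.22 in DGLA arrays and 10.31, 10.27 and 10.32 in control arrays. Every array with an acid lay below every control array, but the differences of -0.16, -0.21 and -0.20 did not pass (adjusted p = 0.558, 0.848 and 0.749). In ugt-16 (ZC443.6) the differences from control were 0.01 with LNA, -0.06 with GLA and -0.07 with DGLA. In ugt-62 (M88.1) they were 0.18, 0.03 and 0.33, and in ugt-25 (C10H11.3) -0.28, -0.35 and -0.04. None of these passed. The arrays of ugt-16 overlapped between all groups. In ugt-62 all DGLA arrays lay above all control arrays, and in ugt-25 all LNA and all GLA arrays lay below all control arrays.

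Other genes of the same chemistry were read from fixed lists. Of 14 genes for the supply and transport of UDP-sugars (of 16 listed), none was called in any comparison, with medians of 0.07 for LNA, -0.04 for GLA and 0.01 for DGLA against control. Of 17 regulators of the response to xenobiotics and fat (of 18 listed), none was called either (medians 0.02, -0.01 and 0.05).

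Of 22 ABC efflux transporters (of 23 listed), pgp-1 alone was called. It was higher with DGLA, at 7.19, against 5.92 in control (1.27, SE 0.158, adjusted p = 0.00239) and 5.54 with LNA (1.65, adjusted p = 0.000616). It was also higher with GLA, at 6.72, than with LNA (1.18, adjusted p = 0.0244). Of 74 cytochrome P450 genes 4 were called higher and 2 lower with GLA against control. With DGLA the counts against control were also 4 and 2, and with LNA 0 were called. Foremost was cyp-13A12, at 3.78 for GLA and 2.44 for DGLA over the same control arrays. Of 43 glutathione S-transferases gst-44 rose with GLA (0.80, adjusted p = 0.00855), and 3 rose with DGLA, with gst-33 first (2.01, adjusted p = 0.000421). The called UGT members were 2 of 67 with GLA, 5 of 67 with DGLA and 0 of 67 with LNA. Of all genes 0.165% were called higher and 0.0824% lower with GLA against control. With DGLA these shares were 0.33% and 0.212%, and with LNA 0.0549% and 0.0118%. The lists differ in size, and a difference between them was not tested.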

How the data were processed

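Values were the log2 signals per probe set that the authors deposited, made with RMA per the submitters' processing notes. These also name the Transcriptome Analysis Console and the Affymetrix Expression Console, with versions and genome build not given in the sources used here. That the scale is log2 was read from the range of the values. Probe sets were named from GEO's platform annotation, where 25546 had 1 symbol, 646 several and 3125 none. Where several 1-symbol probe sets named a gene, the one with the highest mean stood for it. All 67 ugt genes matched the reference gene table (WBcel235) by identifier, with 0 symbols changed. That table served for names and neighbours only.

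Group means were fitted to all 12 arrays with limma 3.58.1 (lmFit, eBayes) in R 4.3.3, with no block and no filter. Total degrees of freedom were 11.6. Precision is limited by the number of arrays (median SE of a difference 0.136). The fit was tested on simulated arrays with independent normal noise, for each acid against control. It called 100% of rises of 2, 82% to 94% of rises of 1 and 18% to 28% of rises of 0.5. Differences near 0.5 can thus be missed. Each simulated fit called 155 to 157 probe sets. In the data, LNA against control called 14 genes higher and 3 lower, GLA 42 and 21, and DGLA 84 and 54. Fewer calls make the adjusted threshold stricter, so the shares found can be lower in the data, most so for LNA. Promoter and probe sequences were not used here. Named genes were those called, the 4 smallest p in each comparison, the 5 highest and 5 lowest means, and 6 fixed members. Genes outside this rule (ugt-8 to ugt-14 except ugt-13, ugt-27, ugt-28, ugt-40, ugt-43, ugt-67) are named as neighbours. Alternatives were a replicate block, dim probe sets left out, other normalizations, another prior, array weights, probe sets averaged per gene, the compared groups alone, arrays left out, and adjustment over all 6 comparisons (chosen after seeing the data). Members and lists were chosen with earlier results of these data known.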

Additional observations from a re-analysis of the deposited data

How the results depend on the processing

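Of the called members, ugt-37 with GLA (against control, LNA and DGLA), ugt-35 with GLA against control and ugt-33 with DGLA against control stayed called under every alternative run. With 1 array left out, the number called ranged from 0 to 2 for LNA against control, 1 to 2 for DGLA against control, 1 to 6 for GLA against LNA, 1 for DGLA against GLA and 1 to 5 for DGLA against LNA, and stayed at 2 for GLA against control. The F test called 4 to 7 members with 1 array left out, and 5 with the replicate block, which ended the call of ugt-26. With 1 array left out, the median difference of DGLA from LNA ranged from -0.096 to -0.0095. With the compared groups alone the number was 1 for DGLA against control, GLA against LNA, DGLA against GLA and DGLA against LNA. Without LNA 2 and LNA 3 it was 3 for DGLA against control and 0 for DGLA against LNA, and the medians were 0.052 for LNA against control and -0.014 for DGLA against LNA. With cyclic loess the median for DGLA against LNA was -0.021. Adjusted over all 6 comparisons, the number was 2 for DGLA against control and 3 for DGLA against LNA. With the replicate number as a block it was 2 for DGLA against control, 1 for DGLA against GLA and 2 for DGLA against LNA. The labels do not say whether the replicate numbers pair the arrays. Deviations of same-numbered arrays from their group means correlated at -0.133 to 0.216, with 3 of 18 pairs over 0.1. Across groups, 6 of 12 arrays correlated best with an array of their own number. These values cannot decide whether the arrays are paired. The cause of the changes between alternatives was not tested. Dim members, such as ugt-34, have signals that are hard to tell from background, and no detection call was used.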
